A study of Mus musculus with 14 samples.

Results

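The p53 pathway carries its own brakes, and 9 genes of that circuit were examined here: the p53 antagonists Mdm2, Mdm4 and Ppm1d, the p53-responsive genes Ccng1, Zmat3 and Trp53inp1, and the p53 family genes Trp53, Trp63 and Trp73. They were taken by name, not by a rule on measured values, from the 21883 protein-coding genes of the RefSeq annotation of GRCm38.p6 (mm10). Earlier results of these data were known when they were chosen. Each gene was read together with 10 kb on either side, and all coordinates below are mm10.

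The series profiled E14 mouse embryonic stem cells by chromatin immunoprecipitation and sequencing (ChIP-seq). Acetylation of histone H3 at lysine 27 (H3K27ac), found at promoters and enhancers in use, and trimethylation at lysine 9 (H3K9me3), typical of silent heterochromatin, were each measured after DMSO vehicle and after 1 µM doxorubicin, which traps topoisomerase II on DNA and leaves breaks. Drug or vehicle was given for 6 h and washed out for another 6 h, and cells were harvested at 12 h. p53 was pulled down through an HA tag, with the same antibody on untagged cells and input chromatin of doxorubicin-treated cells as controls. All cells were of the same E14 line, grown on gelatin with leukemia inhibitory factor and MEK and GSK3 inhibitors. The titles do not state the treatment of either HA group, and the sources used here do not say how the tag was introduced or whether the tagged line is 1 clone. Each of the 7 groups comprises 2 libraries, but the deposited peak lists pool them. The titles number each p53 library as replicate 1, so whether they are separate replicates is not known. Hence no difference below has a replicate check and none was tested. Intervals are 95%, exact, and cover counting error only.

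In unstressed cells p53 is kept scarce by MDM2, a ubiquitin ligase that marks it for degradation, and is held inactive by MDM4, a related protein that covers its activation domain. DNA damage kinases release p53 from both, and p53 then binds DNA as a tetramer at paired decamer sites. Several of the genes it activates, Mdm2 first among them, act back to end the response. p63 and p73 recognise closely similar sites and are best known for their roles in epithelial and in neural and ciliated tissues.

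p53 was found at 8 of the 9 genes and not at Ppm1d. The same holds for 24.96% of all protein-coding genes. That share grows with length, from 14.3% of genes under 20000 bp to 26.9% of those up to 60000 bp and 52.6% of longer ones. The 8 genes together held 17 p53 regions, 7 with the summit inside the gene and 10 in its flanks. None of the 17 overlapped a region of the untagged HA list or of the input list. The share of all p53 regions that do so is not given here. Counted by gene, which is a different unit, those lists reach 5.54% and 2.06% of protein-coding genes. Trp53inp1 had 4 p53 regions, a number that 0.891% of protein-coding genes reached or exceeded. Mdm2 had 3 (2.16% of genes have at least as many), Zmat3, Trp53, Trp63 and Trp73 had 2 each (7.03%), and Mdm4 and Ccng1 had 1 each. These shares are over genes of all lengths, while Trp63 (208326 bp) and Trp73 (83627 bp) are in the longest class. A single untagged HA region lay in any of the windows, at 69600329 to 69600765 of chromosome 11 beside Trp53, within Atp1b2, with 56 fragments.

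RefSeq promoter sequences were at hand for 6 of the 9 genes (all but Zmat3, Trp63 and Trp53inp1) and were searched for a full p53 consensus site. The search asked for a pair of p53 decamers with no spacer, the C and G of each core intact and at most 3 mismatches in 20 bases. The site is its own reverse complement, so reading one strand covers both. Matches were present in 3 promoters, shown here as the 250 bases before the transcript start, 5′ to 3′ on the gene's strand, with the matched pair of decamers in capitals. They are shown because 2 of them lie under a p53 summit and the third does not.
Ccng1 (chr11:40755287-40755536, minus strand): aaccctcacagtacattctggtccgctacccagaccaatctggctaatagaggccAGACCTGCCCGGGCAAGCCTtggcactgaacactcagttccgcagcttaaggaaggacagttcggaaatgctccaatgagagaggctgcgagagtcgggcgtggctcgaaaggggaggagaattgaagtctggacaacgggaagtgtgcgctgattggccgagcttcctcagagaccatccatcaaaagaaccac
Trp53 (chr11:69580109-69580358, plus strand): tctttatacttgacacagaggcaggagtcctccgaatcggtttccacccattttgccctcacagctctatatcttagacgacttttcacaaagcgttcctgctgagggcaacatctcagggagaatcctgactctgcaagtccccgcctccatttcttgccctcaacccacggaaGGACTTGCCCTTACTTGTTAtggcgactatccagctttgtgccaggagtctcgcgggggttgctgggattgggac
Trp73, inner start (chr4:154097174-154097423, minus strand): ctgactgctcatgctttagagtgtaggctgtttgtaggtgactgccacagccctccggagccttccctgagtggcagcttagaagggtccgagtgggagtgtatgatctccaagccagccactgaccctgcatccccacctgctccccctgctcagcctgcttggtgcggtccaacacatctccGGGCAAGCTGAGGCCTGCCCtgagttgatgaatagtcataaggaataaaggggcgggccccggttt

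The Ccng1 match had 1 mismatch and its middle lay 4 bp from the p53 summit. The Trp53 match had 3 mismatches and lay 8 bp from a summit. The Trp73 match, with 2 mismatches, had no p53 region over it, and the nearest summit was 8653 bp away. At most 3 mismatches were met in 1.38% of all 32851 RefSeq promoters of 300 bases, and in 27.6% of the 174 promoters that overlapped a p53 region. At most 1 mismatch, as at Ccng1, was met in 0.067% of all promoters. No match was found in the promoter of Mdm2, of Ppm1d, at either start of Mdm4 or at the upstream start of Trp73. The p53 regions of Mdm2 and Mdm4 lay outside the 300 bases searched.

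Mdm2 (chromosome 10, 117688875 to 117710758, minus strand) encodes the ligase that degrades p53. Its 3 p53 regions had 267, 88 and 402 fragments at the summit. The first (117709727 to 117710272) lay 679 bp inside the gene from its transcript start, where the p53-responsive promoter of Mdm2 is known to lie. A flanking region (117711524 to 117711996) was centred 936 bp upstream of the start. The highest, at 117717406 to 117718066, was 6994 bp upstream, with 402 fragments (364 to 443) and a fold enrichment of 32.9 over the background that the MACS peak caller had set. It thus exceeded the intragenic region, with 267 fragments (236 to 301), in fragments, and the intervals did not overlap. Its fold enrichment was also the higher, 32.9 against 17.9.

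Mdm4 (chromosome 1, 132986105 to 133030587, minus strand) encodes the relative of MDM2 that masks p53. Its only p53 region, at 133019055 to 133020742, lay within the gene, 5086 bp downstream of the inner of its annotated starts and 10257 bp downstream of the outer one. The summit carried 383 fragments (346 to 423) with a fold enrichment of 49. It ranked 1010 of 11282 p53 regions by fragments, in the top 8.95%.

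Ppm1d (chromosome 11, 85311254 to 85347071) encodes WIP1, a phosphatase that removes the damage-induced phosphates from p53 and its kinases. No p53 region was listed in the gene or its flanks. The closest one, at 85270655 to 85270982, was 40408 bp away and had 43 fragments. A weaker association below the authors' threshold is not shown by such a list, whose lowest p53 summit had 20 fragments.

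Ccng1 (chromosome 11, 40748552 to 40755309, minus strand) encodes cyclin G1, which recruits a phosphatase to MDM2. A single p53 region at 40754671 to 40755799 had its summit 182 bp upstream of the transcript start, on the consensus match printed above, with 288 fragments (256 to 323) and a fold enrichment of 35.4. Zmat3 (chromosome 3, 32334792 to 32365665) encodes a zinc finger RNA-binding protein. Its main region at 32363994 to 32364694, inside the gene 1306 bp from the end at 32365665, had the most fragments of all 17, 534 (490 to 581). A weak second region 4474 bp outside that end had 49 (36.3 to 64.8).

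Trp53inp1 (chromosome 4, 11156441 to 11174379) encodes a stress-induced nuclear and autophagy protein that promotes the activating phosphorylation of p53. Its 4 p53 regions had 269, 121, 527 and 255 fragments in order of coordinate. The first and second sat 1326 and 204 bp outside the gene end at 11156441. The other pair lay beyond the opposite end, 1964 and 9950 bp from 11174379, both within the non-coding gene A630034I12Rik. The region at 11175859 to 11176744 reached 527 fragments (483 to 574) and a fold enrichment of 67.4, the highest fold among the 17, and ranked 434 of 11282 by fold. By fragments it could not be separated from the main Zmat3 region, since the intervals overlapped. The order by fold differs from the order by fragments because MACS set a background of 8 fragments at Zmat3 and of 4.75 at this region, in units scaled to the input.

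The family genes themselves carried weaker p53 signal. At Trp53 (chromosome 11, 69580348 to 69591873, plus strand) the region over the promoter match had 68 fragments (52.8 to 86.2), close to the median of 70 over all p53 regions. A second, at 69576978 to 69577459, lay 3128 bp outside the gene within the neighbouring gene Wrap53, and had 109 (89.5 to 131). Trp73 (chromosome 4, 154056249 to 154139875, minus strand) had regions of 74 and 148 fragments inside the gene. Their summits lay 11301 bp downstream and 8709 bp upstream of the inner start, from which the p73 form without the activation domain is transcribed. Trp63 (chromosome 16, 25683763 to 25892088) had 2 intragenic regions of 43 and 54 fragments, both below the median. The p53 regions at the family genes thus ran from 43 to 148 fragments, against 49 to 534 at Mdm2, Mdm4, Ccng1, Zmat3 and Trp53inp1.

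**Figure D1:**
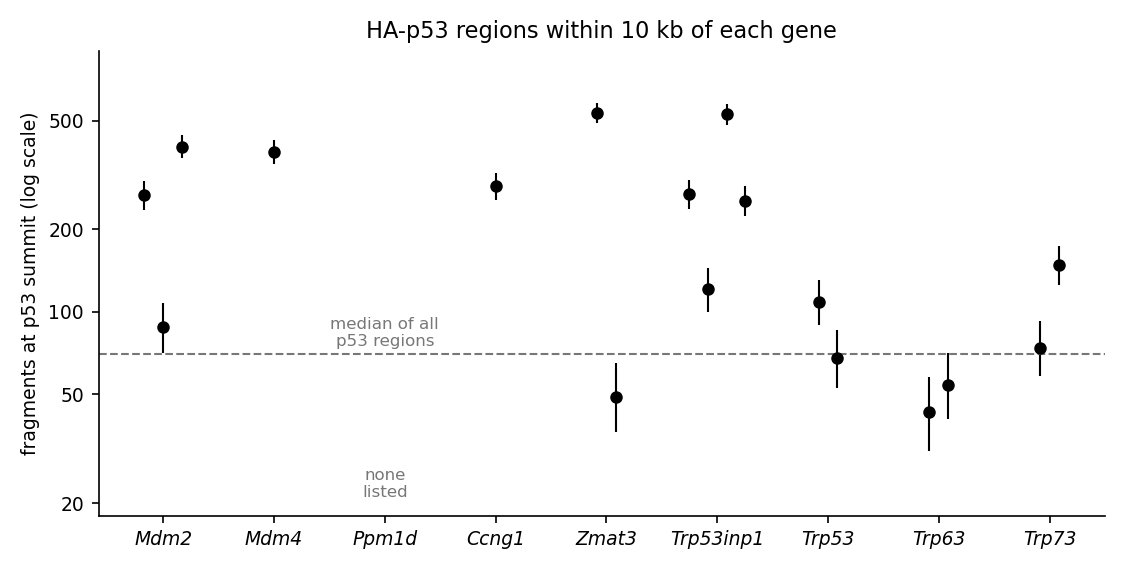
Fragments at the summit of each p53 region within 10 kb of the 9 genes, on a log axis, with 1 point per region in order of coordinate and bars for the exact 95% Poisson interval. The dashed line is the median of all p53 regions (70), and the points of Zmat3 and Trp53inp1 reach highest (534 and 527).

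Over the 17 regions the median was 148 fragments and a fold enrichment of 15, against 70 and 7.52 over all 11282 p53 regions. Of the 17, 13 lay above that median of 70 and 4 were in the top 10%: one each at Mdm2, Mdm4, Zmat3 and Trp53inp1. The lowest of the 17, at Trp63, had 43.

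H3K27ac was listed at 8 of the 9 genes in vehicle, against 71.9% of protein-coding genes, and at all 9 in doxorubicin, against 77.4%. It was higher after doxorubicin at each of the 8 genes with a listed region in both treatments when pileup was compared, a direction seen at 56.7% of protein-coding genes, and at 6 of the 8 when the authors' fold enrichment was used instead (Mdm4 0.947, Trp53 0.988). The value compared is the highest H3K27ac summit in a gene and its flanks, in fragments per 1000000 fragments of the list of that treatment (FPM). A change of at least 1.5-fold upward was found for 2 of the 8, Mdm2 and Trp73, against 24.5% of all genes, and downward for 0 of the 8, against 10.1%. Mdm2 passes that limit narrowly (1.51): with scaling by the median of shared regions it was 1.43, and with fold enrichment 1.32, which leaves Trp73 alone (2.42 and 2.22). The median ratio of doxorubicin to vehicle was 1.36 over the 8 genes, 1.07 over all 15331 genes with values, and 1.06 over all regions shared by the lists. For 4 of the 8, Mdm2, Ccng1, Trp53inp1 and Trp73, the interval of the ratio excluded 1. The share of all genes whose interval does so is not given here. The ratio exceeded that of 75.8% of genes at Mdm2, 74.3% at Trp53inp1, 68.4% at Ccng1 and 96.2% at Trp73.

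Among the antagonists, Mdm2 went from 6.78 to 10.3 FPM, a ratio of 1.51 (1.21 to 1.91). The summit lay 1210 bp upstream of the transcript start in vehicle and 1220 bp in doxorubicin, next to the p53 region there. Ppm1d had 2.52 and 3.46 FPM, a ratio of 1.38 (0.931 to 2.04) that includes 1. Its summit was 381 and 399 bp upstream of the start. Mdm4 had 9.98 FPM in vehicle, the highest of the 9 genes though its interval overlaps those of Trp53inp1 and Ccng1, and 10.8 after doxorubicin. The ratio of 1.08 (0.883 to 1.33) was close to the median of all genes. This acetylation did not centre on either annotated start: its summit lay 477 bp from the p53 summit in vehicle and 302 bp in doxorubicin. The region over the inner start had 2.42 and 2.58 FPM, and no region was listed within 1 kb of the outer start.

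Among the p53-responsive genes, Trp53inp1 went from 8.77 to 12.9 FPM, a ratio of 1.47 (1.2 to 1.8). Its level after doxorubicin was the highest of the 9, though its interval overlaps those of Mdm2, Mdm4 and Ccng1. Ccng1 went from 8.09 to 10.9, a ratio of 1.34 (1.08 to 1.67). Zmat3 had 3.97 and 4.87, a ratio of 1.23 (0.893 to 1.69) that includes 1. The intervals of these 3 ratios overlap.

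Among the family genes, Trp73 went from 2.95 FPM (61 fragments) to 7.57 (129 fragments), a ratio of 2.56 (1.88 to 3.54). It exceeded the ratio of 96.2% of genes. Its summit was inside the gene, 14615 bp downstream of the inner start in vehicle and 14562 bp in doxorubicin, with the nearer p53 summit 3314 and 3261 bp away. H3K27ac regions covered 19.8% of the Trp73 window in vehicle and 32% in doxorubicin. Over the whole lists, coverage went from 88.4 to 108 Mb. Trp53 itself had 4.26 and 4.81 FPM, a ratio of 1.13 (0.826 to 1.54). Trp63 was listed only after doxorubicin, as a single region of 17 fragments (0.998 FPM) at 25849684 to 25850325, and 7.38% of protein-coding genes were likewise listed in doxorubicin only. The lowest summit of the vehicle list was 0.436 FPM, so at Trp63 the vehicle level lay under the authors' threshold and is not shown to be 0.

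**Figure D2:**
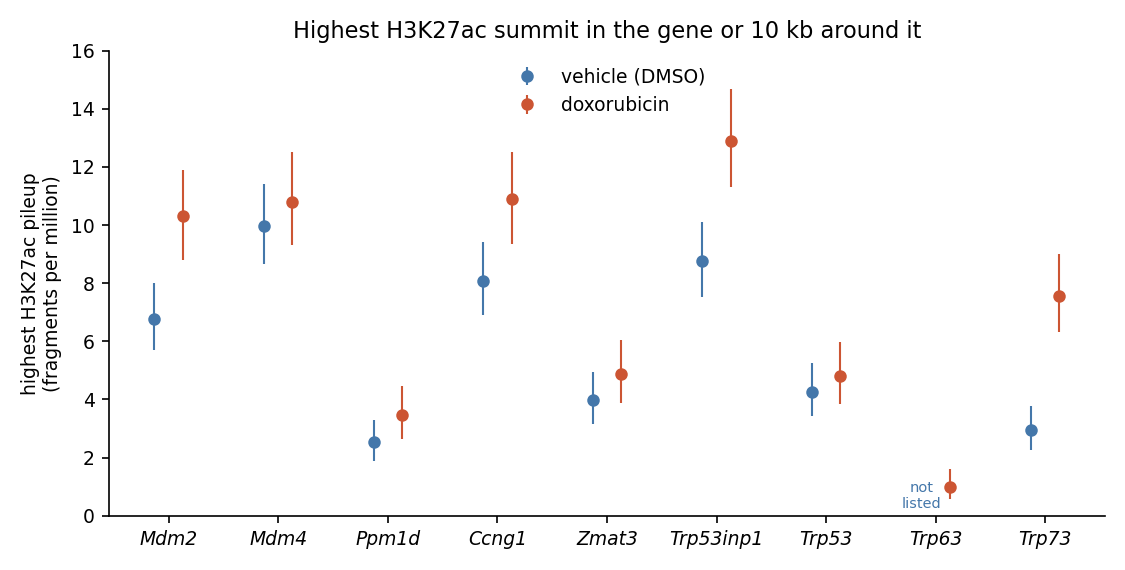
Highest H3K27ac summit in each of the 9 genes or 10 kb around it, in FPM of the pooled list, after vehicle (blue) and doxorubicin (orange), with exact 95% Poisson intervals. Trp73 (2.95 and 7.57) shows the widest gap, and Trp63 is listed in doxorubicin only. The intervals of the treatments overlap at Mdm4, Ppm1d, Ccng1, Zmat3 and Trp53.

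H3K27ac was next read at the p53 regions themselves. In vehicle 14 of the 17 overlapped an H3K27ac region, against 42.9% of all p53 regions, and in doxorubicin 15 did, against 72.3%. In both treatments 14 did, against 42.3%. Acetylation in doxorubicin only was found at 1 of the 17, the outermost Trp53inp1 region, against 29.96% of all p53 regions. That count becomes 3 if summits need a −log10 q of at least 5, or a fold of at least 4, since the vehicle regions at the weak Zmat3 region and at the strongest Trp53inp1 region then drop out. Both Trp63 regions had none in either treatment, and none of the 17 had it in vehicle only (0.594% of all).

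Since H3K27ac regions here run up to 13365 bp, the highest summit within 1 kb of the p53 summit was compared, a choice made after the data were seen. It was higher after doxorubicin at 14 of 14 p53 regions with values in both treatments (93.5% of all p53 regions) and at least 1.5 times higher at 7 (75.7%). The first and second Trp53inp1 regions share 1 H3K27ac summit, so the 14 are not all separate values. Within 500 bp the highest summit was lower after doxorubicin at 2 of the 14, the first Trp53inp1 region (0.839) and the Trp53 promoter region (0.892). The median ratio was 1.49, against 2 over all 5024 p53 regions with values. Where the vehicle level was at least 2 FPM, the median was 1.47 at 9 of these regions and 1.47 at 1022 of all. Under 2 FPM it was 2.52 at 5 of these regions and 2.16 at 4002 of all. The 1.47 at 9 regions counts the shared Trp53inp1 summit, itself at 1.47, for 2 of them. Whether vehicle level accounts for the lower median of these regions was not tested. The highest summit of the whole overlapping region, the comparison first planned, gave a higher ratio where the doxorubicin region is long. It was 8.69 (5.28 to 15.1) at the downstream Trp73 region, 4.61 (3.32 to 6.53) at the upstream Mdm2 region and 3.98 (2.51 to 6.49) at the Trp53 region in Wrap53, and it was 2.09 (0.947 to 4.87) at the weak Zmat3 region.

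Within 1 kb, the Trp53inp1 region beyond 11174379 had the highest ratio of the 14, though its interval overlaps those of others, among them the Trp53 region in Wrap53 and both Trp73 regions. It went from 10 fragments (0.484 FPM) to 32 (1.88), a ratio of 3.88 (1.86 to 8.84), and in doxorubicin the H3K27ac summit stood 8 bp from the p53 summit. Its outer neighbour was not listed in vehicle and had 24 fragments (1.41) in doxorubicin. Both are low beside the 12.9 FPM at the other end of the gene. There the 2 p53 regions outside 11156441 share an H3K27ac summit, with the ratio of 1.47 given above. For the first of them that summit was 910 bp away in vehicle and 926 bp in doxorubicin, and within 500 bp of the p53 summit the ratio was 0.839 (0.533 to 1.31).

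At Mdm2 the upstream p53 region, the strongest of the 3, went from 2.23 to 4.17 FPM, a ratio of 1.87 (1.27 to 2.77). The intragenic region went from 5.13 to 8.04, a ratio of 1.57 (1.21 to 2.04). These intervals overlap, so the upstream and intragenic ratios are not separated. In vehicle the upstream p53 region lay in an H3K27ac region of its own, 2812 bp long, and in doxorubicin a single region of 13365 bp covered all 3 p53 regions. H3K27ac covered 38.3% of the Mdm2 window in vehicle and 53.8% in doxorubicin.

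At Trp73 the 2 p53 regions had ratios of 2.49 (1.38 to 4.65), from 0.872 to 2.17 FPM, and 2.52 (1.69 to 3.81), from 1.84 to 4.64. At Trp53 the region in Wrap53 went from 15 to 41 fragments, or 0.726 to 2.41 FPM, a ratio of 3.31 (1.8 to 6.44). The promoter region of Trp53 had 4.26 and 4.81, a ratio of 1.13 (0.826 to 1.54), at a summit that was 873 bp from the p53 summit in vehicle and 752 bp in doxorubicin. The intervals of these neighbouring p53 regions did not overlap. The remaining regions were those of Mdm4, Ccng1 and Zmat3. Their main regions had the ratios of their genes, 1.08, 1.34 and 1.23, and the weak Zmat3 region had 1.44 (0.701 to 2.99) from 16 and 19 fragments.

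**Figure D3:**
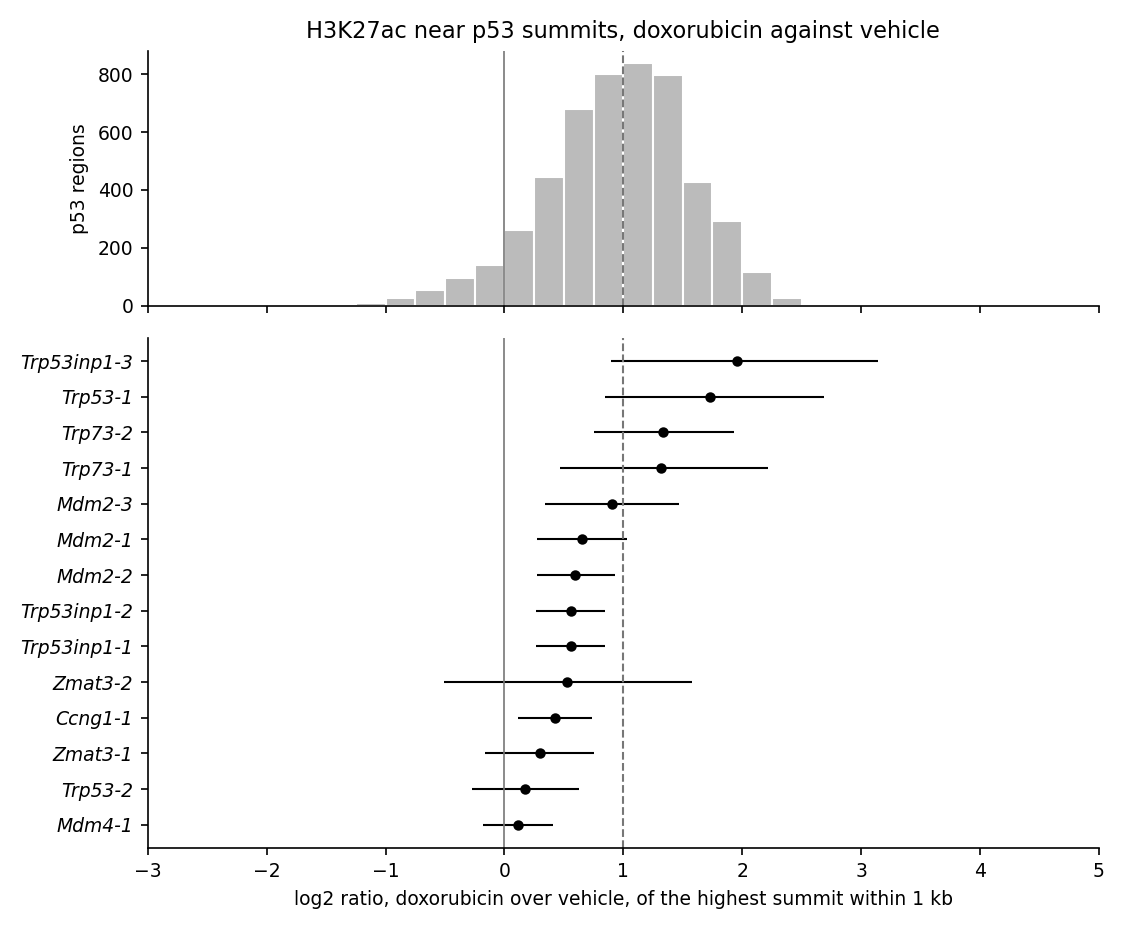
Log2 ratio of doxorubicin to vehicle for the highest H3K27ac summit within 1 kb of a p53 summit. The upper panel counts all 5024 p53 regions with values, and the lower shows the 14 near these genes, numbered within a gene by coordinate, with exact 95% intervals; the dashed line is the median of all p53 regions, and 4 of the 14 points, from Trp53inp1, Trp53 and Trp73, lie to its right.

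H3K9me3 was listed at 3 of the 9 genes, Mdm4, Ppm1d and Trp53inp1, in each treatment. The mark was present at 42.1% of protein-coding genes in vehicle and 47.6% in doxorubicin. H3K9me3 pileup, scaled by the fragments of each list, was higher in doxorubicin over the list as a whole, with a median ratio of 1.23 over shared regions (0.30 on the log2 scale), so each ratio is also given relative to that median. At Trp53inp1 a domain of 11169 bp in vehicle (11174419 to 11185587) and 11960 bp in doxorubicin began just beyond the gene end at 11174379. It had 3.5 and 4.72 FPM, a ratio of 1.35 (0.933 to 1.96) and of 1.1 relative to the shared median. At Ppm1d an intragenic region at 85323663 to 85324726 had 1.06, and 1.74 in doxorubicin, a ratio of 1.63 (0.847 to 3.22), or 1.33 relative to the median. At Mdm4 a flanking region had 1.44 and 0.903, a ratio of 0.628 (0.292 to 1.29), or 0.51. All 3 intervals include 1, the counts being between 13 and 68 fragments, so no difference was detectable at this depth. Any higher value in doxorubicin was seen at 80.5% of all genes with the mark in both treatments. A ratio at least 1.5-fold up was seen at 24.6% of all genes and at least 1.5-fold down at 2.10%.

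The H3K9me3 domain beside Trp53inp1 is the one place among the 9 genes where p53 and this mark were listed together. Both p53 regions inside A630034I12Rik lay in it in each treatment, 2 of 17 p53 regions, against 20.01% of all p53 regions in vehicle and 25.2% in doxorubicin. Within 1 kb of the p53 summits H3K9me3 was 2.75 and 2.99 FPM at the inner region, a ratio of 1.09 (0.696 to 1.69). At the outer region it was 3.5 and 3.82, a ratio of 1.09 (0.738 to 1.61). Relative to the shared median the ratios were 0.882 and 0.886. These are the same regions at which H3K27ac was 10 fragments or not listed in vehicle and 32 and 24 in doxorubicin. Each list averages over many cells and both copies of the locus, so whether both marks lay on the same molecules cannot be told apart from their lying on different ones.

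**Figure D4:**
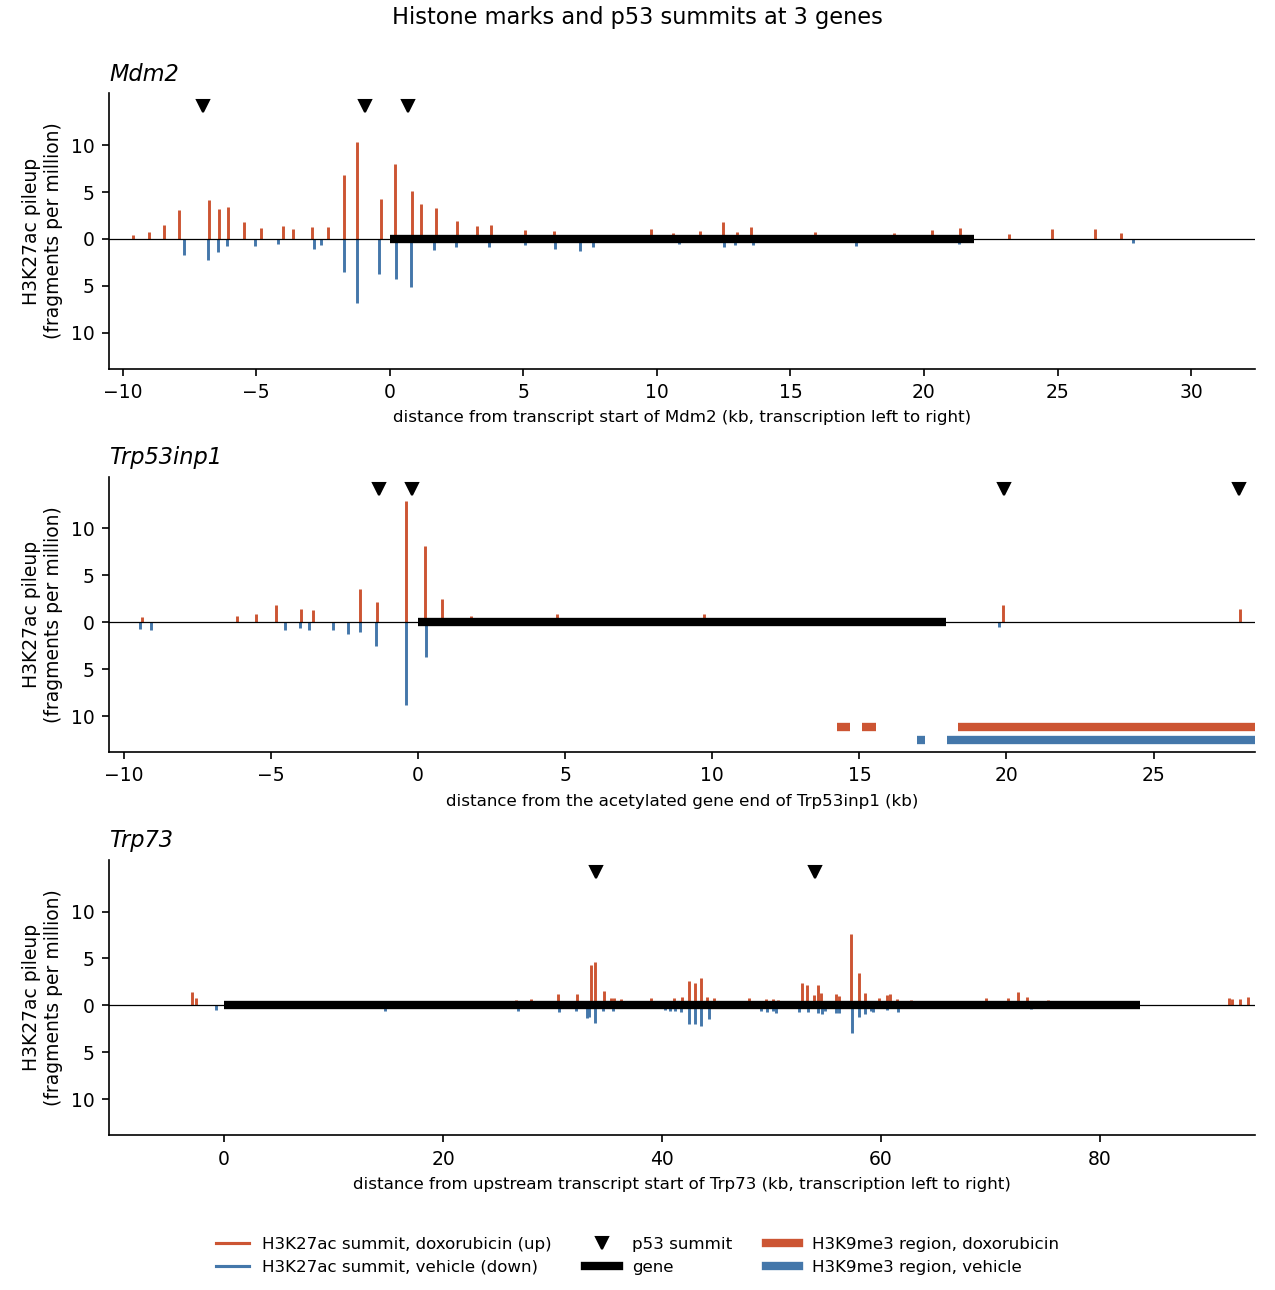
H3K27ac summits in FPM after doxorubicin (orange, upward) and vehicle (blue, downward) over Mdm2, Trp53inp1 and Trp73 and 10 kb around each, against distance in kb. Triangles mark p53 summits, the black bar is the gene, and the coloured bars beside Trp53inp1 are H3K9me3 regions, which hold 2 of its 4 p53 summits.

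Other genes of the circuit gave a scale for these values. Of 20 further p53 regulators and partners (among them Atm, Chek2, Usp7, Sirt1 and Ep300), 7 had a p53 region, against 24.96% of protein-coding genes. The highest was at Ppp1r13b, which encodes the p53 cofactor ASPP1, with 491 fragments and an H3K27ac ratio of 3.59. The median H3K27ac ratio of the 20 was 1.17, with 4 at least 1.5-fold up and 1 down. Over all 15331 protein-coding genes with values the median was 1.07, with 24.5% up and 10.1% down. Each count of genes up or down below is to be read beside these shares. Of 7 relatives of the 9 genes by sequence (Ccng2, Trp53inp2, Zmat1, Zmat4, Ppm1a, Ppm1b and Ppm1g), 3 had a p53 region and none of those exceeded 96 fragments. The median ratio of the 6 relatives with values was 0.756, with 1 up and 1 down. For example Ccng2, the paralogue of Ccng1, had a p53 region of 65 fragments and an H3K27ac ratio of 0.777, and Ppm1b had 96 fragments and 1.51. Of 20 established p53 target genes outside the circuit 12 had a p53 region, led by the gene of the cell cycle inhibitor p21, Cdkn1a, with 699 fragments. Their median H3K27ac ratio was 1.33 over 18 genes, with 6 up and 0 down.

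As a check of the cell type, all 8 embryonic stem cell markers examined (Pou5f1, Sox2, Nanog, Esrrb, Zfp42, Tfcp2l1, Klf4 and Tdgf1) had H3K27ac in both treatments, against 71.9% of protein-coding genes in vehicle and 77.4% in doxorubicin. Of 6 fibroblast markers 3 had it in vehicle and 5 in doxorubicin, so a listed region separates these cell types poorly. The median H3K27ac ratio of the stem cell markers was 0.856, with 0 at least 1.5-fold up and 1 down (Zfp42, 0.492). Over all protein-coding genes with values the median was 1.07, with 24.5% up and 10.1% down. The lists rest on 45238471 fragments for p53, 20647895 and 17036528 for H3K27ac in vehicle and doxorubicin, and 15992125 and 14402634 for H3K9me3. Listed regions numbered 82177 for H3K27ac in vehicle and 112259 in doxorubicin, so a region listed in only one treatment is weak evidence of a difference.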

How the data were processed

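The members and gene lists were chosen with earlier results of these data known. The submitters' processing notes name Bowtie2 2.2.6, and the file headers name an mm10 index that holds 1 extra contig. Per the file headers, MACS 2.2.5 called narrow peaks on 2 pooled libraries in paired-end mode, keeping 1 fragment per position, at a q cutoff of 0.05. Input served as the control of both HA lists, with a local background for p53 and a genome-wide one for the untagged cells. The histone and input lists had no control. The deposited signal is a pileup, the number of fragments over a summit. In both HA lists MACS had scaled it to 2 times the number of input fragments, and undoing this gave whole fragments (within 0.02) at 100% of summits. The deposited fold is the ratio of pileup plus 1 to background plus 1, by MACS, and the deposited q values are −log10.

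Summits of one interval were joined into a region taking the values of the highest, and regions sharing at least 1 bp counted as overlapping. Histone pileups were divided by the fragments of the list. Pileup intervals are exact Poisson, and ratio intervals exact conditional (Clopper-Pearson). All 9 genes are described, with no selection among them. Genes came from RefSeq, GRCm38.p6, whose promoter table gave strands and starts for 6 of them. Overlaps and intervals were checked on simulated data. Alternatives were stricter −log10 q and fold, other windows and overlaps, regions shared with the control lists left out, and other scalings. Scripts ran on Python 3.11.15 with scipy 1.17.1, pandas 2.3.3, numpy 2.4.6 and matplotlib 3.10.9.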

Additional observations from a re-analysis of the deposited data

How the results depend on the processing

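Of 76 counts recomputed under the alternatives, 72 stayed within 1.5 times the reported count. The others were the p53 regions with H3K27ac in doxorubicin only (3 against 1, with a −log10 q of at least 5 or a fold of at least 4, where 12 of 14 kept vehicle H3K27ac) and the genes with H3K27ac at least 1.5 times higher (1 against 2, with scaling by the shared median or with fold enrichment). With 1 kb around each gene there were 12 p53 regions, and 2 genes with H3K9me3 in doxorubicin. With 25 kb there were 18 p53 regions, and 4 genes with H3K9me3, 3 of them higher in doxorubicin. The highest H3K27ac ratio of a gene stayed inside its reported interval in 56 of 56 recomputations, 2 of them below 1 (Mdm4 and Trp53 by fold enrichment), and the H3K9me3 ratio in 20 of 20. These tallies are a weak check. The stricter limits, the other windows and leaving out control regions kept the same highest H3K27ac summits, so only the scalings changed the H3K27ac ratios. The stricter limits and leaving out control regions likewise left the H3K9me3 ratios unchanged. At the p53 regions 2 of 66 H3K27ac ratios fell below 1, both within 500 bp: the first Trp53inp1 region (0.839), whose reported interval excluded 1, and the Trp53 promoter region (0.892), whose interval did not. A further 6 left the interval of the highest summit of the overlapping region, at the upstream Mdm2 region (1.76 to 1.87) and the downstream Trp73 region (2.35 to 2.64). Taking H3K9me3 within 1 kb and scaling by the shared median together moved 2 of 10 ratios below 1, to 0.882 and 0.886. No paired analysis was possible because the 2 libraries of a group were merged before peak calling, and for the same reason leaving out a replicate was not run. Exons, introns and sequences of the p53 regions outside the promoter table were not analysed here.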

Other observations

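Beyond the 10 kb windows, further p53 regions lay near some of these genes. The nearest to Ccng1 outside its window, 14362 bp from the gene and within Nudcd2, had 203 fragments and a fold enrichment of 25. The one nearest to Mdm4, within Lrrn2 and 66622 bp away, had 299 fragments, against 383 at the Mdm4 region itself. For Mdm2 the next was 51912 bp away within Nup107, with 111 fragments. Trp53inp1 had none for 120132 bp, where a region of 470 fragments followed. The gene to which such distant regions belong was not tested.

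Among the regulators outside the 9 genes, Trp53bp1, which encodes the repair protein 53BP1, had 3 p53 regions of at most 62 fragments and an H3K27ac ratio of 3.11. The regions were weaker than the median of all p53 regions (70), while the acetylation ratio was above that of each of the 8 genes with a ratio (at most 2.56). Rchy1, which encodes the p53-degrading ligase PIRH2, had 2 p53 regions, the higher with 133 fragments, and an H3K27ac ratio of 1.4.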
